A study of Mus musculus with 32 samples.

Results

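The *Zscan4* family of the mouse is a cluster of near-identical genes on chromosome 7. Its 9 annotated copies, *Zscan4a* to *Zscan4f* and *Zscan4-ps1* to *Zscan4-ps3*, were taken by symbol from the 55385 genes listed for each RNA library. The family was chosen with earlier results of these data known. The study asked what acetylation and deacetylation of histone H3 lysine 27 do in the first days of mouse development, by inhibiting the enzymes in embryos and measuring RNA and open chromatin. Total RNA was measured in 8 groups of 2 libraries, and open chromatin in 4 groups whose replicates were merged into 1 peak list each. Groups of H3K27ac profiles were not analysed here.

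All embryos used here were wild type (WT), from B6D2F1/J oocytes and sperm (parents aged 6 to 8 weeks), joined by in vitro fertilisation and kept in culture. In the A-485 experiment, zygotes, early 2-cell embryos and late 2-cell embryos had been cultured with 10 µM A-485 or with DMSO, the solvent. A-485 inhibits the catalytic activity of the acetyltransferases CBP and p300. It was present from 4 to 20 h post in vitro fertilisation (hpi) and washed off afterwards, so the late 2-cell embryos of this experiment had been moved to medium without it. In the TSA experiment, late 2-cell embryos had been cultured from 8 to 28 hpi with 50 nM Trichostatin A (TSA), an inhibitor of histone deacetylases, or with DMSO. Each RNA sample is a pool of whole embryos, so a lower value can mean fewer embryos that express a gene or less RNA in each, and these cannot be told apart. The labels do not say whether replicates came from separate fertilisations, so every p below measures the spread between 2 libraries a group, which may be technical. They name no batch either. Titles of the early 2-cell RNA libraries are in another style than those of the zygote and late 2-cell libraries of the A-485 experiment. Whether the stages were processed together is not stated, so in comparisons of stages a batch cannot be told apart from the stage. A permutation test of 2 against 2 libraries cannot go below an exact two-sided p of 0.333, so single genes were tested only in models fitted over all genes.

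ZSCAN4 proteins carry a SCAN domain, by which such proteins pair, and C2H2 zinc fingers, which bind DNA. In normal development the genes are transcribed in a short burst at the 2-cell stage, as part of the first wave of transcription from the embryo's own genome, and in a few cells of an embryonic stem cell culture at a time. DUX, a double homeobox factor, binds their promoters and switches them on together with other genes of the 2-cell state. ZSCAN4 is known for telomere lengthening by recombination, for genome stability and for promoting loss of DNA methylation in stem cells. CBP and p300 acetylate H3K27 at promoters and enhancers, and histone deacetylases remove the mark.

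The 9 genes lay within 819.9 kb, at chr7:10794242-11614112 of GRCm38. *Zscan4c*, *Zscan4f*, *Zscan4-ps2* and *Zscan4-ps3* are read from the plus strand, and the other 5 from the minus strand. GENCODE M21 annotates *Zscan4a* as an unprocessed pseudogene and the other 8 as protein coding, the 3 copies named as pseudogenes included. Their transcripts share long stretches. Of all 75-base windows of a member's transcripts, the share found in no other gene was 15.5% for *Zscan4e*, 16.6% for *Zscan4f*, 16.8% for *Zscan4b*, 19% for *Zscan4-ps2*, 21.4% for *Zscan4c*, 37.4% for *Zscan4-ps3*, 49.1% for *Zscan4a*, 60.5% for *Zscan4d* and 65.8% for *Zscan4-ps1*. *Zscan4b* and *Zscan4e* are the closest pair, sharing 79.9% and 80.3% of their windows. Since 75 bases was the read length, the counter had to divide many reads between copies. The counter reported a standard deviation for the division of reads, whose median over libraries with at least 50 counts lay between 1.54% of the count for *Zscan4a* and 7.71% for *Zscan4-ps2*. Of the family's 9719 distinct windows, 99.1% were in members only, so that the summed count of the family hardly depends on the division. The summed FPKM used below can depend on it more, because FPKM is scaled to transcript length and the copies differ in length. Values of single members, above all of *Zscan4-ps2*, carry this uncertainty in addition to the spread between libraries.

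The promoters of the 9 genes were alike, with 75.7% (*Zscan4b* and *Zscan4-ps1*) to 99.7% (*Zscan4b* and *Zscan4e*) identity between pairs over the 300 bases around the annotated starts, and a part of each is shown because a single arrangement of letters recurs in all of them. Each line gives 81 bases on the gene's strand, read from GRCm38. The first capitals mark the DUX motif, spelled TGATT, any 2 bases, ATCA, which here lies on the opposite strand, and the second capitals mark TATAAA.
Zscan4a (chr7:10799101-10799181, minus strand): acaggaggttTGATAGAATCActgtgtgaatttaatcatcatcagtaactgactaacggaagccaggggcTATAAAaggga
Zscan4b (chr7:10905071-10905151, minus strand): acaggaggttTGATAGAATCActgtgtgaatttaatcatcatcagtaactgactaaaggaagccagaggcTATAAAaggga
Zscan4c (chr7:11005621-11005701, plus strand): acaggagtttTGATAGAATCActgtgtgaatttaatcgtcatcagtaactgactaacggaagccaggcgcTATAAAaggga
Zscan4d (chr7:11166203-11166283, minus strand): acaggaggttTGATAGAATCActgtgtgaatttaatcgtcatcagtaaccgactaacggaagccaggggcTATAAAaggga
Zscan4e (chr7:11310703-11310783, minus strand): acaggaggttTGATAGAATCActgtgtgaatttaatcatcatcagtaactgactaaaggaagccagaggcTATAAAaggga
Zscan4f (chr7:11397814-11397894, plus strand): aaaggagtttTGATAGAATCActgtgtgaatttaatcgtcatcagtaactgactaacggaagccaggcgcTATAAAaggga
Zscan4-ps1 (chr7:11069746-11069826, minus strand): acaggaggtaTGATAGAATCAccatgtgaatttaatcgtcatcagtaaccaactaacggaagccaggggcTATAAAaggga
Zscan4-ps2 (chr7:11514186-11514266, plus strand): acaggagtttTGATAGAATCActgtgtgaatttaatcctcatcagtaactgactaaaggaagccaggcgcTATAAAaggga
Zscan4-ps3 (chr7:11609184-11609264, plus strand): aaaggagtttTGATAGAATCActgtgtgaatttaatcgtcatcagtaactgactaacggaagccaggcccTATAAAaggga
From the first base of the DUX motif to the first base of TATAAA there were 60 bases in all 9 copies. The DUX motif began 91 bases upstream of the annotated start in *Zscan4b*, *Zscan4e* and *Zscan4f*, 114 bases upstream in *Zscan4a*, *Zscan4c*, *Zscan4d*, *Zscan4-ps2* and *Zscan4-ps3*, and 125 bases upstream in *Zscan4-ps1*. Against *Zscan4c*, the window differed at 1 base in *Zscan4f*, at 2 in *Zscan4-ps2* and *Zscan4-ps3*, at 3 in *Zscan4a* and *Zscan4d*, at 5 in *Zscan4b* and *Zscan4e*, and at 7 in *Zscan4-ps1*, the most diverged copy. Over the 300 bases from 250 upstream to 50 downstream of the start, on both strands, the DUX motif was in 9 of 9 members and in 0.207% of 32851 RefSeq promoters of the same length. TATAAA was in 9 members and in 13.6% of all promoters. AGGTCA, the letters that nuclear receptors such as NR5A2 bind, was in 8 members, all but *Zscan4-ps1*, and in 16.3% of promoters. TAATCC, the letters of OBOX homeobox factors, was in *Zscan4-ps2* and in 7.06% of promoters, and TGCACAC was in none of the 9 and in 4.4%. A match is a string of letters and does not show that a factor was bound.

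The libraries held 13206163 to 32585987 expected counts, a depth at which a gene with no count in a library is below about 3 counts. Libraries of a group differed by more than sampling noise, the chi-square over its degrees of freedom being 9.44 to 19.6, so none was a repeat of another. All 6 maternal markers listed (*Gdf9*, *Bmp15*, *Zp3*, *Mos*, *Oosp1*, *H1foo*) were found in every group. They are RNAs of the oocyte, and their summed level was 534 to 767 FPKM in late 2-cell DMSO libraries, 687 to 719 after TSA, and 1320 to 1370 after A-485. Mitochondrially encoded genes took 5.35% to 5.43% of counts in late 2-cell A-485 libraries and 2.35% to 2.44% in their controls, and 3.66% to 3.72% after TSA against 2.39% to 2.71%. Of the 5 markers listed for each of cumulus cells, fibroblasts and erythroid cells, most were at or near 0 in every group. The largest exceptions were the fibroblast list in late 2-cell A-485 libraries, where 1 gene of 5 had a mean of 1 FPKM or more and the sum was 14.2 to 16.4 FPKM against 0.13 to 0.64 in controls, with *Col1a2* and *Dcn* at 0, and the erythroid list after TSA, where 3 of 5 did and the sum was 44.6 to 46.8 FPKM against 0.78 to 1.36, with *Hbb-bs* and *Hbb-bt* at 0. The fibroblast list was also higher after TSA, where 2 genes of 5 had a mean of 1 FPKM or more and the sum was 5.51 to 8.07 FPKM against 0.38 to 1.73, with *Dcn* at 0. The erythroid sum was lower with A-485, at 0.14 to 0.90 FPKM against 1.76 to 4.71 with DMSO at early 2-cell and at 0.34 to 0.55 against 3.53 to 4.56 at late 2-cell. Of 5 sperm markers, at least 1 had a mean of 1 FPKM or more in every group. Their sum was 15 to 18.8 FPKM in zygotes with DMSO and 13.2 to 15.7 with A-485. At early 2-cell it was 5.59 to 7.08 with DMSO and 7.87 to 8.44 with A-485. The part of all these markers in the results below was not tested.

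Transcripts of the family were most abundant in early 2-cell DMSO embryos. FPKM, a level scaled to transcript length and to library size, was summed over the 9 members in each library. The sum was 16.3 and 12.53 in zygotes with DMSO and 12.75 and 15.44 in zygotes with A-485. It was 628.66 and 614.88 in early 2-cell embryos with DMSO and 5.05 and 3.63 in early 2-cell embryos with A-485, the lowest values of the series. In late 2-cell embryos it was 158.9 and 182.26 with DMSO and 35.58 and 46.41 after A-485. The TSA experiment gave 135.97 and 130.5 with DMSO and 459.27 and 339.49 with TSA. From high to low, the group means were 621.8 ± 9.74 (SD, n = 2) in early 2-cell DMSO, 399.4 ± 84.7 in TSA, 170.6 ± 16.5 and 133.2 ± 3.87 in the late 2-cell DMSO groups, 41 ± 7.66 in late 2-cell A-485, 14.41 ± 2.67 and 14.1 ± 1.9 in the zygote groups, and 4.34 ± 1 in early 2-cell A-485. Only the zygote groups overlapped. Neighbours elsewhere in this order were separate in the 2 libraries each, although the late 2-cell DMSO groups, 1.28-fold apart, came from separate experiments.

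**Figure D1:**
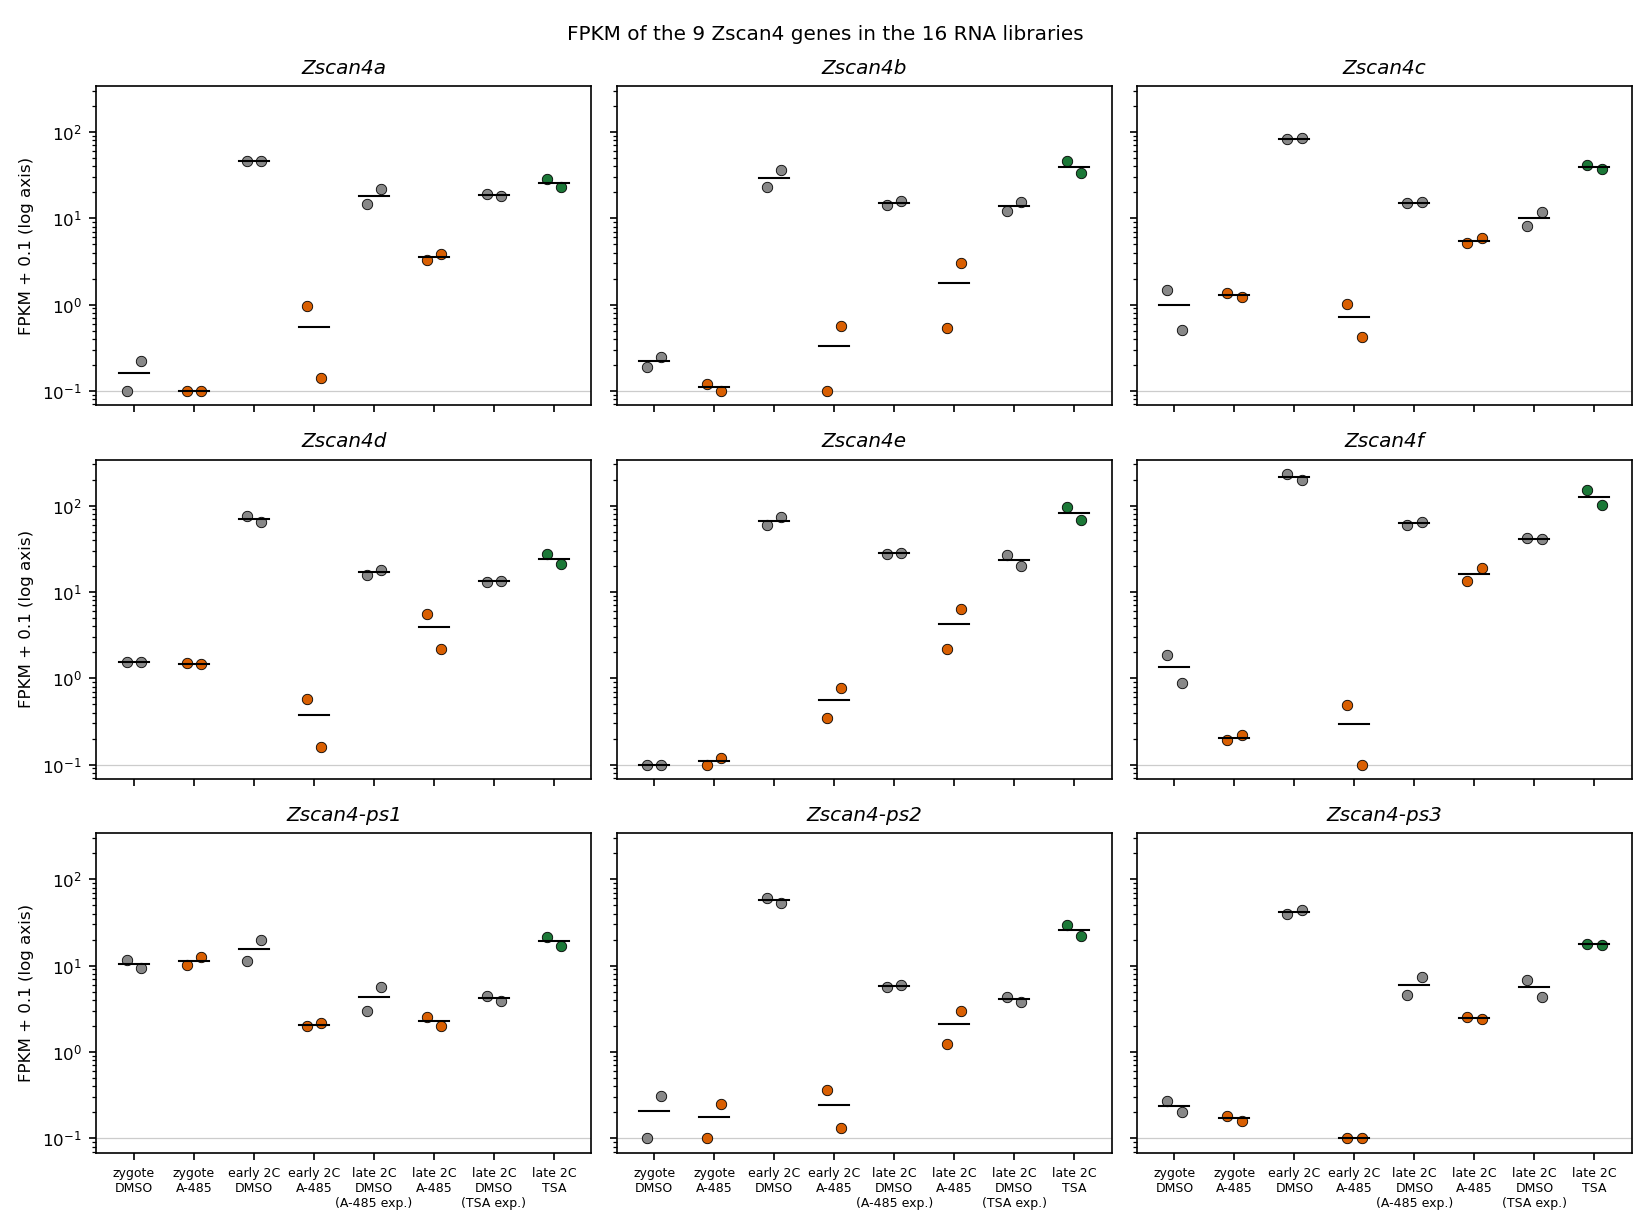
FPKM + 0.1 on a log axis, 1 panel for each of the 9 genes. The 8 groups stand along the horizontal axis, with 1 point a library, the mean as a bar, grey for DMSO, orange for A-485 and green for TSA. In 8 genes the early 2-cell DMSO points are the highest or near the highest and the early 2-cell A-485 points lie below 1 FPKM, while Zscan4-ps1 is near 10 FPKM already in zygotes.

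In the 2-cell groups other than early A-485, *Zscan4f* was the most abundant copy, with 30.1% to 40.1% of the summed FPKM in every such library. The transcript length that scales its FPKM was 970.06 to 1353.56 bases in these libraries, so its FPKM share is not its share of counts. By counts *Zscan4f* was also the largest, with 5407.78 of the family's 22203.85 and 4885.36 of 22632.21 in early 2-cell DMSO libraries. In early 2-cell DMSO embryos its FPKM was 230.72 and 195.56, rank 418 of all genes by mean. *Zscan4c* followed with 82.81 and 83.73 FPKM, *Zscan4d* with 76.06 and 63.7, *Zscan4e* with 58.84 and 72.65 and *Zscan4-ps2* with 60.95 and 52.82. The values of *Zscan4e* crossed those of *Zscan4d* and of *Zscan4-ps2*, and those of *Zscan4f* and *Zscan4c* did not cross any other. *Zscan4a* had 45.89 and 46.29 FPKM, *Zscan4-ps3* 39.51 and 43.97, *Zscan4b* 22.63 and 36.23, and *Zscan4-ps1* 11.25 and 19.93, the lowest of the family at this stage.

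*Zscan4-ps1* followed another course. Its FPKM was 11.5 and 9.31 in zygotes with DMSO and 9.92 and 12.6 in zygotes with A-485, so it made up 70.6% to 81.6% of the family's FPKM there. It also made up 37.6% and 56.2% in early 2-cell A-485 embryos, at 1.9 and 2.04 FPKM. In all other groups its share was 1.79% to 6.77%. It was the copy with the largest share of windows of its own, and in all 16 libraries the standard deviation of read division stayed between 0.516% and 5.38% of its count. Over the 8 group means, the Pearson r of log2(FPKM + 1) with the sum of the other 8 members was 0.328 for *Zscan4-ps1* and 0.947 to 0.988 for each of the other 8. These r describe 8 groups that share stages, and read division ties the members to one another.

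**Figure D2:**
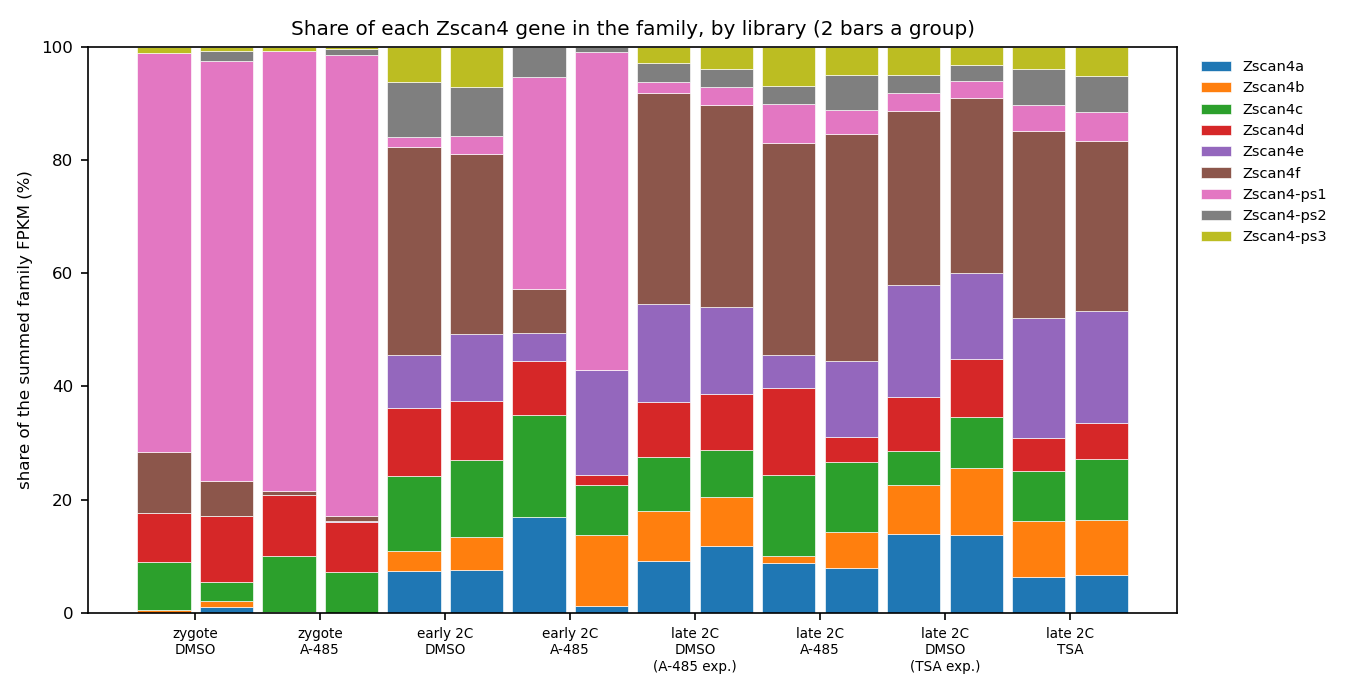
Stacked bars of the share (%) of each of the 9 genes in the family's summed FPKM, 1 bar a library and 2 bars a group. Zscan4-ps1 fills 70.6% to 81.6% of the 4 zygote bars, and Zscan4f is the largest part, 30.1% to 40.1%, in the 10 bars of 2-cell groups other than early A-485.

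From zygote to early 2-cell with DMSO, 8 of 9 members rose past the threshold of a call, which was an adjusted p under 0.05, a change of at least 2-fold and a mean of at least 1 FPKM in either group. Over all 20106 genes tested, 11.2% were called up. Counts were tested with the quasi-likelihood test of edgeR, and p was adjusted by Benjamini-Hochberg. *Zscan4f* went from 1.75 and 0.77 FPKM to 230.72 and 195.56, a log2 fold change of 7.36 ± 0.162 (SE; adjusted p = 7.06e-12). *Zscan4c* went from 1.36 and 0.41 FPKM to 82.81 and 83.73 (6.64 ± 0.28), and *Zscan4d* from 1.43 and 1.46 to 76.06 and 63.7 (5.69 ± 0.150). These were the copies other than *Zscan4-ps1* that zygotes held at about 1 FPKM. *Zscan4e* had no count in either zygote library, so its rise was at least 1069-fold. The log2 rise was 9.70 for *Zscan4a*, 9.13 for *Zscan4-ps2*, 8.31 for *Zscan4-ps3* and 8.00 for *Zscan4b*, from 7 to 13 counts at most in a zygote library. Without zygote DMSO replicate 1 these were 8.68 for *Zscan4a* and 8.11 for *Zscan4-ps2*, and *Zscan4c* was at 7.72. Without replicate 2 the group held no count of *Zscan4a* or *Zscan4-ps2*, and *Zscan4c* was at 6.02. *Zscan4-ps1* was the exception, at 0.67 ± 0.228 (adjusted p = 0.0281), under 2-fold and with overlapping FPKM. The family's summed FPKM was 43.1-fold higher at early 2-cell, and 37.7- to 50.2-fold over pairs of libraries.

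This rise was not seen with A-485. In early 2-cell embryos, 9 of 9 members were lower with A-485 than with DMSO, against 7.9% of 20872 genes called down. *Zscan4f* was at 0.39 and 0 FPKM with A-485 (log2 fold change −9.57 ± 0.365, adjusted p = 3.76e-09), *Zscan4c* at 0.91 and 0.32 (−7.08 ± 0.254, adjusted p = 2.47e-09) and *Zscan4d* at 0.48 and 0.06 (−8.03 ± 0.348, adjusted p = 9.53e-09). None of the A-485 values came near the DMSO values given above. *Zscan4-ps3* had no count in either A-485 library and was at least 660-fold lower. The log2 fold change was −8.67 for *Zscan4-ps2*, −7.09 for *Zscan4e*, −6.93 for *Zscan4b* and −6.68 for *Zscan4a*, with adjusted p from 2.53e-09 to 2.13e-06. *Zscan4-ps1* fell least, from 11.25 and 19.93 FPKM to 1.9 and 2.04 (−2.96 ± 0.274, adjusted p = 1.02e-05). Both A-485 libraries held few counts of each member, at most 89 for *Zscan4-ps1* and 42 for the others, so single libraries set the size of these folds. Without A-485 replicate 1 the log2 fold change was −10.08 for *Zscan4a*, −6.00 for *Zscan4b*, −8.01 for *Zscan4c*, −10.12 for *Zscan4d* and −11.29 for *Zscan4-ps2*, and *Zscan4f* had no count. Without A-485 replicate 2 it was −5.70 for *Zscan4a*, −6.48 for *Zscan4c*, −7.15 for *Zscan4d*, −7.92 for *Zscan4e*, −8.51 for *Zscan4f* and −7.73 for *Zscan4-ps2*, and *Zscan4b* had no count. Every call remained without either library. The summed FPKM was 143-fold higher with DMSO, and 122- to 173-fold over pairs of libraries.

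**Figure D3:**
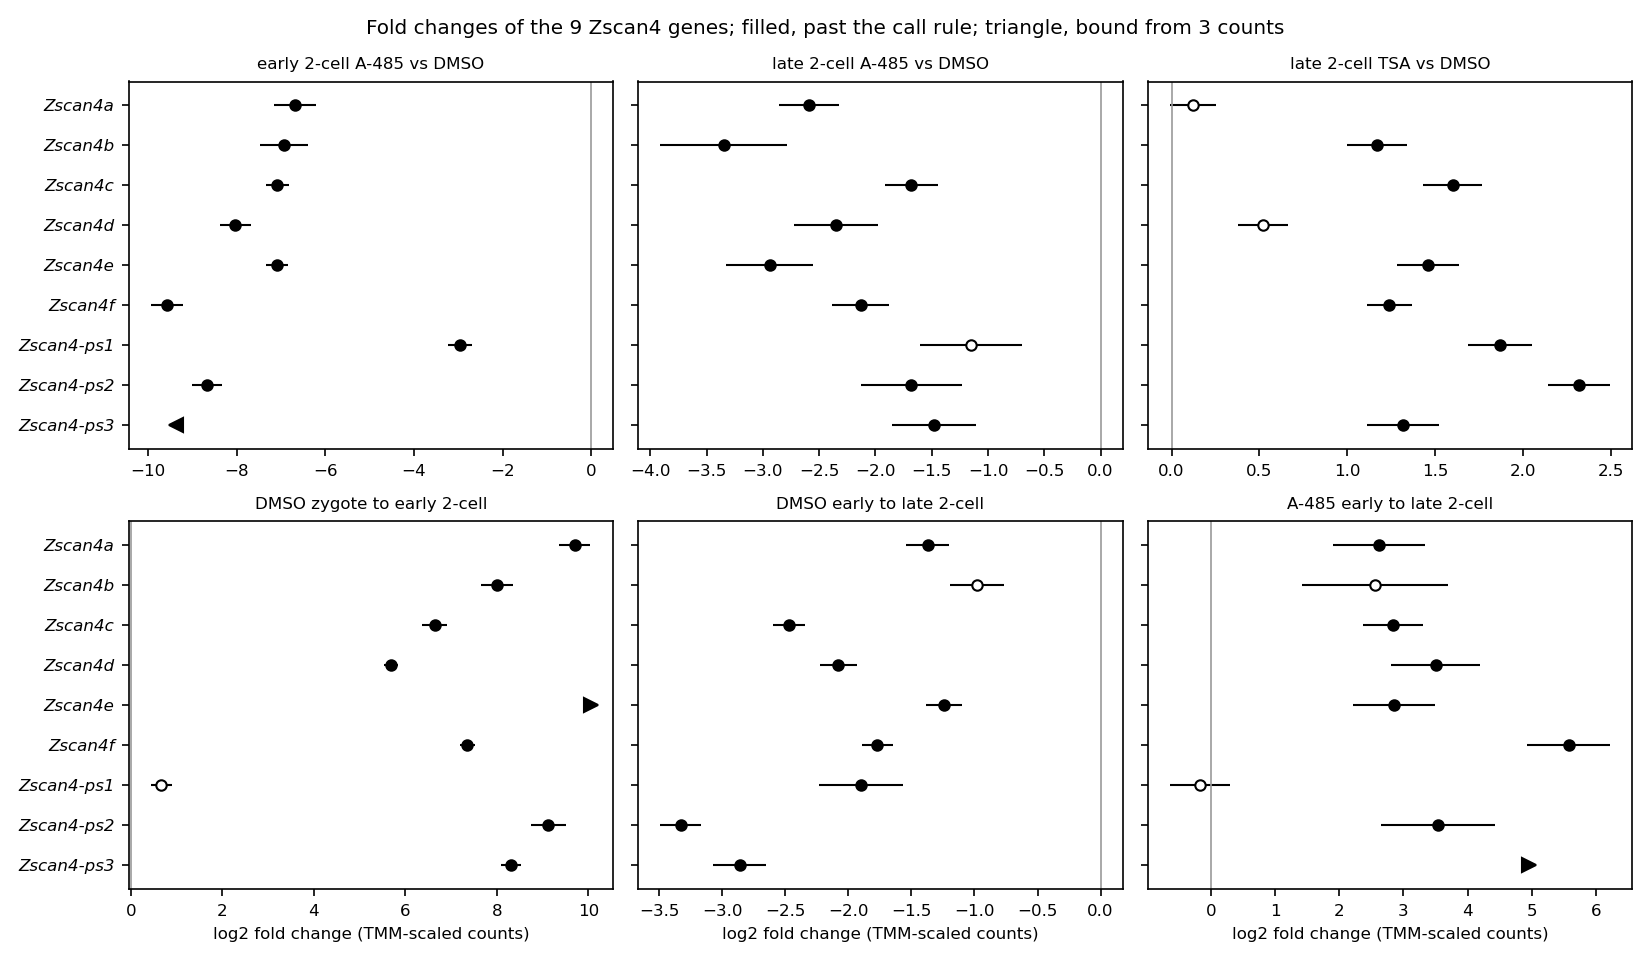
Log2 fold changes of the 9 genes in 6 comparisons, with each panel on its own horizontal scale. Points with bars are fitted values ± SE, filled where the change passed the threshold of a call and open where it did not, and triangles are bounds for a group without counts. All 9 genes lie left of 0 under A-485 at early 2-cell, and Zscan4-ps1 is the least changed at −2.96.

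In zygotes, while A-485 was present, no member was called by edgeR. Of the 7 members with at least 10 counts over the 4 libraries, 0 passed, against 0.0657% of 18258 genes called down, 1 of 7 had an unadjusted p under 0.05, and DESeq2 called 0. That member was *Zscan4f*, with 1.75 and 0.77 FPKM in DMSO and 0.09 and 0.12 in A-485 (log2 fold change −3.12 ± 0.709, adjusted p = 0.299). These libraries held at most 55 counts of it, and the call depended on the fit: 1 member, *Zscan4f*, was called down without the filter on low counts and with all 16 libraries in 1 fit. A fit with replicate number as a block also called 1 member down. *Zscan4c*, at 1.36 and 0.41 against 1.25 and 1.12, and *Zscan4-ps1* overlapped between the treatments. *Zscan4d* was at 1.43 and 1.46 in DMSO and 1.39 and 1.37 in A-485, a log2 fold change of −0.06 ± 0.301 (adjusted p = 0.997). *Zscan4a* and *Zscan4e* had too few counts to be tested, at most 7 and 1 in a library.

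Between zygote and early 2-cell in the presence of A-485, *Zscan4-ps1* and *Zscan4d* fell. *Zscan4-ps1* went from 9.92 and 12.6 FPKM to 1.9 and 2.04 (log2 fold change −2.32 ± 0.218, adjusted p = 1.6e-06) and *Zscan4d* from 1.39 and 1.37 to 0.48 and 0.06 (−2.17 ± 0.723, adjusted p = 0.0266). These were 2 of 9 members called down, against 15.6% of 19858 genes, a share near the background. *Zscan4c*, at 1.25 and 1.12 FPKM in these zygotes and 0.91 and 0.32 at early 2-cell, was not called (−0.75 ± 0.557, adjusted p = 0.29). The call of *Zscan4d* was lost without zygote A-485 replicate 1 (−2.15, adjusted p = 0.0509) and without early 2-cell A-485 replicate 2 (−1.29, adjusted p = 0.0604), and without early 2-cell A-485 replicate 1 the value was −4.28. No member was called up by edgeR or DESeq2, against 6.85% of genes. Without the cutoff of 1 FPKM, 2 members passed the test for a rise. These were *Zscan4a*, from no count to 0.86 and 0.04 FPKM, and *Zscan4e*, from 0 and 0.02 to 0.25 and 0.68 FPKM (adjusted p = 0.0159). *Zscan4b*, *Zscan4f* and *Zscan4-ps2* also had higher means at early 2-cell, at most 0.23 FPKM, with overlapping libraries, and did not pass. *Zscan4a* and *Zscan4e* were also the 2 with an unadjusted p under 0.05 for a rise. With DMSO, *Zscan4-ps1* was at 11.5 and 9.31 FPKM in zygotes and 11.25 and 19.93 at early 2-cell, overlapping values.

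With DMSO the family was past its peak at late 2-cell. From early to late 2-cell, 8 of 9 members fell, against 8.92% of 20326 genes called down. *Zscan4-ps2* fell most, from 60.95 and 52.82 FPKM to 5.56 and 5.8 (log2 fold change −3.33 ± 0.161, adjusted p = 4.95e-08). *Zscan4f* went to 59.31 and 64.99 FPKM (−1.77 ± 0.125, adjusted p = 4.55e-07) and *Zscan4c* to 15.04 and 15.16 (−2.47 ± 0.129, adjusted p = 7.05e-08). The others called were *Zscan4-ps3* at −2.86, *Zscan4d* at −2.08, *Zscan4-ps1* at −1.90, *Zscan4a* at −1.37 and *Zscan4e* at −1.24. *Zscan4b* was just under 2-fold, at 14.02 and 15.9 FPKM in late 2-cell embryos (−0.98 ± 0.213, adjusted p = 0.00304). *Zscan4b* and *Zscan4e*, the closest pair by sequence, had the smallest log2 falls, and read division ties their values.

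After A-485 was washed off, family transcripts appeared but stayed below the controls. At late 2-cell, 8 of 9 members were lower after A-485 than with DMSO, against 16.8% of 22822 genes called down. *Zscan4f* was at 13.37 and 18.62 FPKM after A-485 and 59.31 and 64.99 with DMSO (log2 fold change −2.13 ± 0.252, adjusted p = 3.24e-05). *Zscan4b*, at 0.44 and 2.89 against 14.02 and 15.9, had the largest fold (−3.35 ± 0.561, adjusted p = 0.000527). *Zscan4e* was at −2.94, *Zscan4a* at −2.59, *Zscan4d* at −2.35, *Zscan4c* and *Zscan4-ps2* at −1.68 and *Zscan4-ps3* at −1.48. *Zscan4-ps1* did not pass, at 2.41 and 1.92 FPKM against 2.84 and 5.6 (−1.15 ± 0.454, adjusted p = 0.0664), although its FPKM did not overlap. The call of *Zscan4-ps3* was lost without late 2-cell DMSO replicate 2 (−1.10, adjusted p = 0.105). The A-485 libraries differed from each other in *Zscan4b*, *Zscan4d*, *Zscan4e* and *Zscan4-ps2*. Without A-485 replicate 1 the log2 fold change was −2.57 for *Zscan4b*, −3.18 for *Zscan4d* and −2.35 for *Zscan4e*, and without replicate 2 it was −5.25 for *Zscan4b*, −3.94 for *Zscan4e* and −2.50 for *Zscan4-ps2*. Beside these values stand the higher mitochondrial share and maternal sum of the same libraries given above. Scaling by the mitochondrially encoded genes moved the median of all genes by −0.98 and every member further down, to −2.66 for *Zscan4c*. The summed FPKM was 4.16-fold higher with DMSO (3.42- to 5.12-fold over pairs).

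From early to late 2-cell, A-485 embryos went the other way than DMSO embryos. In A-485 embryos 7 of 9 members rose, against 12.8% of 22854 genes called up. The summed FPKM was 9.45-fold higher at late 2-cell, and 7.155-fold as counts under the scaling that edgeR used. Mitochondrially encoded genes took 2.5% and 2.24% of counts in the early and 5.43% and 5.35% in the late A-485 libraries. *Zscan4f* rose most among the fitted values, from 0.39 and 0 FPKM to 13.37 and 18.62 (log2 fold change 5.57 ± 0.645, adjusted p = 5.87e-07), and *Zscan4-ps3*, from no count to 2.45 and 2.29 FPKM, rose at least 31-fold. The log2 rise was 3.54 for *Zscan4-ps2*, 3.5 for *Zscan4d*, 2.85 for *Zscan4e*, 2.84 for *Zscan4c* and 2.62 for *Zscan4a*. *Zscan4b*, from 0 and 0.46 to 0.44 and 2.89, overlapped (adjusted p = 0.0928). *Zscan4-ps1* overlapped as well, at 1.9 and 2.04 before and 2.41 and 1.92 after (−0.17 ± 0.466, adjusted p = 0.826). Without late 2-cell A-485 replicate 2, *Zscan4e* (1.84, adjusted p = 0.134) and *Zscan4-ps2* (2.7, adjusted p = 0.112) were no longer called. Without early 2-cell A-485 replicate 1 the log2 rise was 6.04 for *Zscan4a*, 3.79 for *Zscan4c*, 5.61 for *Zscan4d* and 6.18 for *Zscan4-ps2*, with *Zscan4f* rising from no count, and without replicate 2 it was 1.67 for *Zscan4a*, 2.66 for *Zscan4d*, 3.67 for *Zscan4e*, 4.54 for *Zscan4f* and 2.64 for *Zscan4-ps2*. Without late 2-cell A-485 replicate 1 it was 2.68 for *Zscan4d* and 3.45 for *Zscan4e*. In DESeq2 the rise did not pass for *Zscan4a* (2.57, adjusted p = 0.236) and *Zscan4f* (5.51, adjusted p = 0.0535).

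The A-485 effect itself differed between the stages. As the interaction of stage and treatment over 8 libraries in edgeR, the log2 effect was higher at late than at early 2-cell in 9 of 9 members, against 10.1% of 25141 genes. The difference was largest among the fitted values for *Zscan4f* (7.52 ± 0.482, adjusted p = 3.08e-11) and smallest for *Zscan4-ps1* (1.89 ± 0.490, adjusted p = 0.0062). The call of *Zscan4-ps1* was lost without early 2-cell DMSO replicate 2 (1.44, adjusted p = 0.117), without late 2-cell DMSO replicate 1 (1.32, adjusted p = 0.0751) and with scaling by the mitochondrially encoded genes (0.85, adjusted p = 0.222). That of *Zscan4b* was lost without late 2-cell A-485 replicate 2 (1.69, adjusted p = 0.227) and in DESeq2 (3.65, adjusted p = 0.251), and that of *Zscan4a* in DESeq2 (4.04, adjusted p = 0.054). Leaving out an A-485 library moved the size of the difference in most members. Without early 2-cell A-485 replicate 1 it was 7.52 for *Zscan4a*, 2.7 for *Zscan4b*, 6.37 for *Zscan4c*, 7.80 for *Zscan4d* and 9.64 for *Zscan4-ps2*, with no early count of *Zscan4f*. Without early replicate 2 it was 3.16 for *Zscan4a*, 4.85 for *Zscan4c*, 4.84 for *Zscan4d*, 5.04 for *Zscan4e*, 6.43 for *Zscan4f* and 6.10 for *Zscan4-ps2*, with no early count of *Zscan4b*. Without late 2-cell A-485 replicate 1 it was 4.46 for *Zscan4b* and 4.93 for *Zscan4d*, and without late replicate 2 it was 3.16 for *Zscan4e* and 6.17 for *Zscan4-ps2*. The libraries left out for this test were chosen after seeing the data.

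TSA had the opposite sign. In late 2-cell embryos 7 of 9 members were higher with TSA than with DMSO, against 13.8% of 23429 genes called up. *Zscan4f* was at 151.85 and 102.25 FPKM with TSA and 41.82 and 40.46 with DMSO (log2 fold change 1.24 ± 0.127, adjusted p = 1.66e-05). *Zscan4-ps2* rose most, from 4.25 and 3.66 FPKM to 29.08 and 21.72 (2.32 ± 0.176, adjusted p = 1.61e-06), followed by *Zscan4-ps1*, from 4.38 and 3.75 to 21.29 and 16.89 (1.87 ± 0.184, adjusted p = 1.2e-05). *Zscan4c* was at 1.60, *Zscan4e* at 1.46, *Zscan4-ps3* at 1.32 and *Zscan4b* at 1.17. *Zscan4d* passed the test but not the 2-fold limit (0.52 ± 0.140, adjusted p = 0.0123), and *Zscan4a*, at 28.66 and 22.68 FPKM against 18.92 and 17.93, passed neither (0.12 ± 0.130, adjusted p = 0.501). *Zscan4b* fell under 2-fold with scaling by the mitochondrially encoded genes (0.99), without DMSO replicate 1 (1.00) and without TSA replicate 1 (0.94). The summed FPKM was 3.00-fold higher with TSA (2.5- to 3.52-fold over pairs), and 2.40-fold as CPM (counts scaled to library size) with TMM, the scaling that edgeR used for the test. TSA levels of *Zscan4-ps1*, 21.29 and 16.89 FPKM, reached those of early 2-cell DMSO embryos, 11.25 and 19.93. So did *Zscan4b*, at 45.66 and 33.12 against 22.63 and 36.23, and *Zscan4e*, at 97.11 and 67.68 against 58.84 and 72.65. The other members stayed below, such as *Zscan4c*, at 40.82 and 36.72 against 82.81 and 83.73. These groups belong to separate experiments and were not tested against each other.

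Relative to their own controls, TSA and A-485 differed in all 9 members. The log2 effect of TSA minus that of A-485 at late 2-cell was positive and called in 9 of 9, against 12.7% of 26554 genes, from 2.81 ± 0.279 for *Zscan4a* (adjusted p = 8.93e-07) to 4.62 ± 0.550 for *Zscan4b* (adjusted p = 7.93e-06), in edgeR's test of the interaction over 8 libraries. No library left out ended a call. Without late 2-cell A-485 replicate 1 the difference was 3.84 for *Zscan4b*, 3.80 for *Zscan4d* and 3.90 for *Zscan4e*, and without replicate 2 it was 6.54 for *Zscan4b*, 5.51 for *Zscan4e* and 4.94 for *Zscan4-ps2*. *Zscan4a* and *Zscan4d*, the copies not called with TSA, had log2 fold changes of −2.59 and −2.35 after A-485.

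Open chromatin, measured by ATAC-seq, was listed upstream of the genes and not at their starts. None of the 9 members had a peak within 1 kb of its annotated start in any of the 4 lists, while 11.8% (late 1-cell DMSO), 14.5% (early 2-cell DMSO), 11% (late 1-cell A-485) and 18.4% (early 2-cell A-485) of 55450 annotated genes did. Within 2.5 kb the count was still 0 of 9, and the shares over all genes were 13.3%, 18.5%, 12.2% and 20.6% in the same order. Between the first and the last gene of the cluster there were 2 peaks in late 1-cell DMSO and 10 in early 2-cell DMSO, and 0 in both A-485 lists. The lists hold 10214, 27693, 7094 and 13712 distinct peaks for late 1-cell DMSO, early 2-cell DMSO, late 1-cell A-485 and early 2-cell A-485. Of the 10 early 2-cell peaks, 6 lay 2.5 to 3.5 kb upstream of a member, a distance chosen after seeing the lists, at *Zscan4b*, *Zscan4c*, *Zscan4d*, *Zscan4e*, *Zscan4f* and *Zscan4-ps2*. Over all genes, 2.91% had a peak at that distance. The fold enrichment was 22 at *Zscan4c*, 20 at *Zscan4-ps2*, 15.3 at *Zscan4e*, 13.3 at *Zscan4f*, 12.1 at *Zscan4b* and 9.54 at *Zscan4d*, which is the 71.4th to 99.8th percentile of the list. The 3 members without such a peak were *Zscan4a*, *Zscan4-ps1* and *Zscan4-ps3*. About 10 kb upstream of *Zscan4a* and *Zscan4-ps1*, a peak was listed at both stages with DMSO, with fold enrichments of 7.66 and 7.18 in late 1-cell and 16.2 and 16.1 in early 2-cell embryos. Each list was made from both replicates, so there is no replicate spread to set a difference against, and a peak that is not listed may have missed the caller's threshold.

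**Figure D4:**
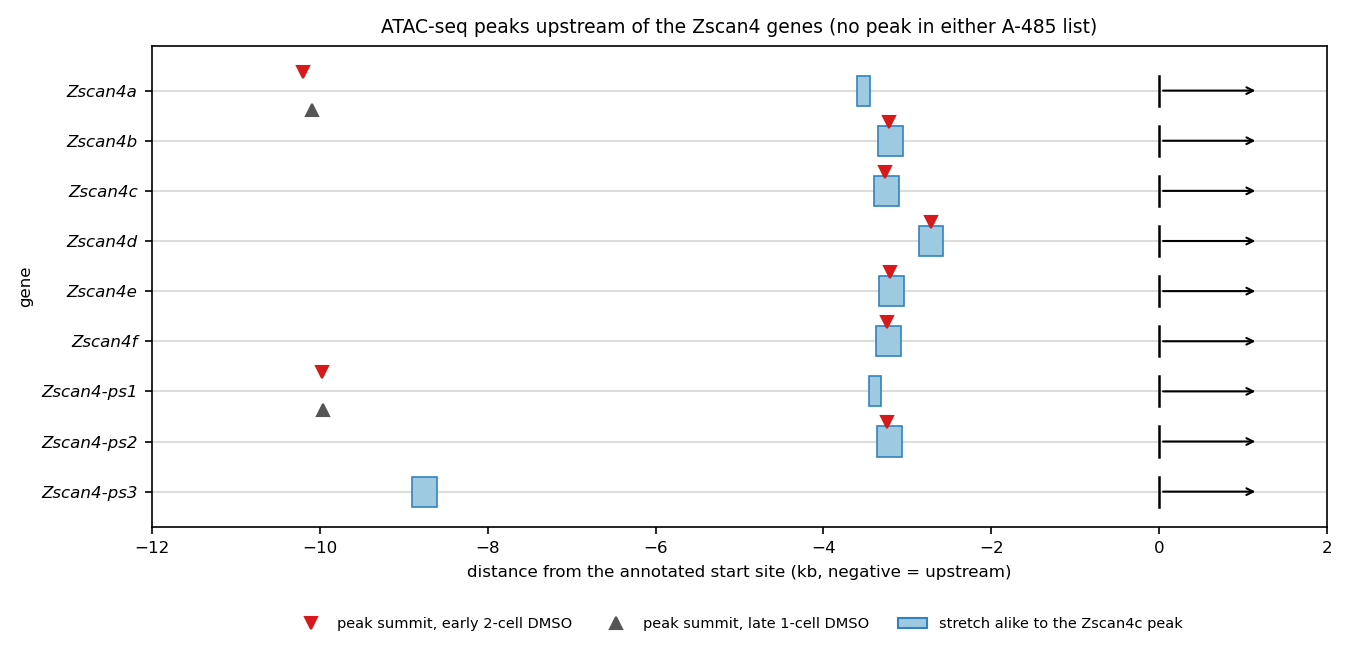
Map of the 12 kb upstream of each of the 9 annotated start sites, in kb and to scale, with all genes drawn left to right in the direction of transcription. Triangles are peak summits of the DMSO lists, and boxes are stretches alike to the 300 bases under the Zscan4c peak. In 6 genes a box 2.5 to 3.5 kb upstream carries an early 2-cell summit, while the boxes of Zscan4a, Zscan4-ps1 and Zscan4-ps3 carry none.

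The 6 peaks lay on copies of a single stretch of sequence. The 300 bases under the *Zscan4c* peak, aligned to the 12 kb upstream of each gene, were found whole in *Zscan4-ps2* (99.7% identity), *Zscan4f* (99.3%), *Zscan4b* (90.1%) and *Zscan4e* (89.7%), and over 281 bases in *Zscan4d* (90.8%). Shown are the stretch of *Zscan4c*, that of *Zscan4d*, which is the peak with sequence of its own, and those of *Zscan4a* and *Zscan4-ps1*, which had no peak. They are given on the gene's strand in GRCm38, with TAATCC in capitals.
Zscan4c (chr7:11002353-11002652, plus strand): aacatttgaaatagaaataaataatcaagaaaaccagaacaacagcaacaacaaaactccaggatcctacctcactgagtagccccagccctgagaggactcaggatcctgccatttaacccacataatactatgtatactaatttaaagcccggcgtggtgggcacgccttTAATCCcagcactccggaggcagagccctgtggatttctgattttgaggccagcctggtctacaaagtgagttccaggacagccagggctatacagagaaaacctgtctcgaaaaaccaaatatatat
Zscan4d (chr7:11168734-11169014, minus strand): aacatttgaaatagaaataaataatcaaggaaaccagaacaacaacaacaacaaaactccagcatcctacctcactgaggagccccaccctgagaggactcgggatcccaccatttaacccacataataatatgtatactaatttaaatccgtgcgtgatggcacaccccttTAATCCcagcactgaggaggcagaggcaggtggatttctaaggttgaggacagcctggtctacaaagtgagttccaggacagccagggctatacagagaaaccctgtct
Zscan4a (chr7:10802503-10802651, minus strand): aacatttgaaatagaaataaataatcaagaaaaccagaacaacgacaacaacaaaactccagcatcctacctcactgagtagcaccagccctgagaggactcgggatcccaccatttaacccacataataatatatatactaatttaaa
Zscan4-ps1 (chr7:11073000-11073148, minus strand): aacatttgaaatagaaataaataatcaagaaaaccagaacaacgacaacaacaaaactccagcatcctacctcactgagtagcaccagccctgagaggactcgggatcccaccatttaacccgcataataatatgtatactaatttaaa
*Zscan4a* and *Zscan4-ps1* held bases 1 to 149 of the stretch, at 94% identity, and lacked bases 150 to 300. Of the missing bases 94% are masked as repeat in the reference, and of bases 1 to 149 40.9% are. Their letters are those of a B1 element, a short interspersed repeat. *Zscan4-ps3* held all 300 bases at 99.3% identity but 8601 to 8900 bases upstream, against 3093 to 3392 for *Zscan4c*, and without a listed peak. TAATCC was in the 7 longer stretches and in 62.1% of 27693 stretches of 300 bases centred on early 2-cell DMSO peaks, and the DUX motif was in none of the 9 stretches and in 0.112% of those. How reads that match several copies were placed is not given in the sources used here. Of the 75-base windows in a stretch, the share that occurs once in the genome was 100% for *Zscan4d*, 36% for *Zscan4a* and *Zscan4-ps1*, 33.2% for *Zscan4b* and *Zscan4e*, 31.4% for *Zscan4-ps3*, 22.1% for *Zscan4f*, 19.9% for *Zscan4c* and 0% for *Zscan4-ps2*. Peaks at the copies other than *Zscan4d* can therefore hold reads of one another. The windows are of single reads, while these libraries too were sequenced in pairs, so the windows can overstate this. Around the starts, within 1 kb, 22.5% (*Zscan4f*) to 80% (*Zscan4-ps1*) of windows occur once.

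The family was compared with other genes of the 2-cell program by counts. The list held 24 genes, such as *Duxf3*, *Zfp352*, *Tcstv1*, *Usp17lc* and *Tdpoz1*. In early 2-cell embryos 23 of 24 fell with A-485, with a list median log2 fold change of −5.94, beside −7.09 over the 9 *Zscan4* genes and 0.00 over all genes tested. The 3 most abundant were *Sp110*, a chromatin-associated nuclear body protein (58 against 132 FPKM, −1.21), *Zfp352*, a zinc finger gene of the 2-cell stage (1.4 against 117, −6.46), and *Gm5662* (0.51 against 114, −7.74). At late 2-cell after A-485, 20 of 24 fell, with a median of −2.60 beside −2.13 and 0.28. With TSA 13 of 24 rose, with a median of 1.12 beside 1.32 and 0.13. *Gm2022* (176 against 16 FPKM, 3.10) and *Gm5662* (199 against 26, 2.58) were among the 3 most abundant, and *Sp110* was under 2-fold and so not called (−0.85). From zygote to early 2-cell with DMSO 21 of 24 rose and 1, *Arg2*, fell, with 14.9% of all genes called down, and a median of 6.82 beside 8.00 and 0.08. From early to late 2-cell with DMSO the list divided, with 3 up, against 15.9% of all genes, and 7 down, and a median of −0.49 beside −1.90 and −0.02. In zygotes 3 of 19 tested fell with A-485, by edgeR, against 0.0657% of all genes. Shares of all genes not given here stand above beside the family's calls. All these comparisons used the same libraries as those of the family.

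**Figure D5:**
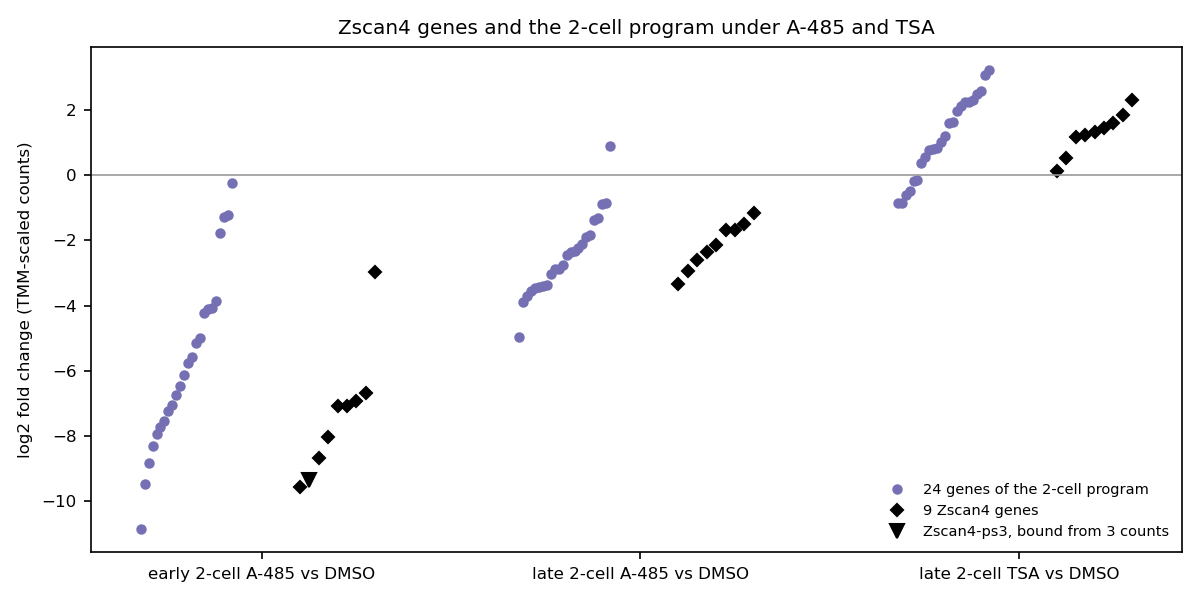
Log2 fold changes of the 24 genes of the 2-cell program (circles) and the 9 Zscan4 genes (diamonds) in 3 comparisons with DMSO. Zscan4-ps3, without counts in early 2-cell A-485 libraries, is a triangle at its bound of 660-fold. Both sets lie mostly below 0 under A-485 at both stages and mostly above 0 under TSA.

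*Duxf3*, the gene of the DUX factor in this annotation, was chosen for its motif after its values were seen. In zygotes its mean over 2 libraries was 0.245 FPKM under A-485, against 7.02 in controls (log2 fold change −4.67 ± 0.288, adjusted p = 7.29e-06). At early 2-cell it was at 5.04 with DMSO and 4.22 with A-485 (−0.24, adjusted p = 0.667), and at late 2-cell at 3.75 and 7.8 (0.89, adjusted p = 0.0771). With TSA it rose from 4.5 to 18.6 FPKM (1.65 ± 0.229, adjusted p = 0.000165). *Duxf3* was called down with A-485 in zygotes, and the *Zscan4* genes at early 2-cell. *Zscan4f* was also lower with A-485 in zygotes, at a mean of 0.105 against 1.26 FPKM, but was not called. A relation between these changes was not tested. Reads of *Duxf3* may be shared with repeated copies of *Dux*.

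Of 8 genes listed as activators of *Dux* or *Zscan4*, *Duxf3* among them, 3 fell with A-485 at early 2-cell, against 7.9% of all genes. *Dppa4*, which acts upstream of *Dux* in stem cells, fell from 33.8 to 1.29 FPKM (log2 fold change −4.12). Its partner *Dppa2* was lower by edgeR but under 2-fold, at −0.92 (adjusted p = 0.00028), and so not called. *Obox5*, an oocyte homeobox gene, was at 0.11 (adjusted p = 0.282), not called. At late 2-cell after A-485, 4 fell and 1 rose, against 16.8% of all genes called down and 10.5% called up. *Dppa4* was at −3.36 and *Dppa2* at −2.99. With TSA 4 fell and 2 rose, against 13.9% and 13.8% of all genes. *Dppa4* was again lower, at −3.16, and *Dppa2* at −3.59, in embryos where 7 *Zscan4* genes rose. Among 15 repressors of the 2-cell state, 3 fell with A-485 at early 2-cell, 8 at late 2-cell and 5 with TSA. Of all genes, 7.9%, 16.8% and 13.9% were called down in these comparisons. *Trim28*, a corepressor of retrotransposons, was at −3.80 at late 2-cell after A-485 and −1.95 with TSA. Of 13 telomere genes, 0 of 13 were called down by edgeR at early 2-cell with A-485, 3 at late 2-cell and 4 with TSA. Over all genes the shares were again 7.9%, 16.8% and 13.9%. *Dkc1*, the telomerase component dyskerin, was at −0.53 (under 2-fold, not called), −1.81 and −1.73 in these comparisons. *Rif1* and *Atrx*, which are also among the repressors, were under 2-fold and so not called in any of the 3. *Rif1* was at −0.64 at late 2-cell after A-485 and −0.89 with TSA, and *Atrx* at −0.48 and −0.38. By edgeR these late 2-cell values had an adjusted p under 0.05. The list medians were −0.58, −1.01 and −0.61 for activators, −0.09, −1.25 and −0.86 for repressors, and 0.03, −0.48 and −0.78 for telomere genes.

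Other SCAN-domain zinc finger genes, relatives of the family by domain, moved in both directions. Of 12 listed, 2 fell with A-485 at early 2-cell, 4 fell and 1 rose at late 2-cell, and 4 fell and 4 rose with TSA. Over all genes, 7.9% were called down at early 2-cell. At late 2-cell 16.8% were called down and 10.5% up after A-485, and 13.9% down and 13.8% up with TSA. *Zscan5b* went from 20.4 to 1.19 FPKM at early 2-cell with A-485 (log2 fold change −3.91) and from 137 to 4.98 at late 2-cell (−5.42), but with TSA it fell from 145 to 27.1 (−2.69). *Zscan29*, at 17.7 and 18.7 FPKM in early 2-cell DMSO and A-485 embryos, was under 2-fold and not called in these comparisons.

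The genes beside the cluster were mostly silent. Of the 5 annotated genes on each side, 2 of 10 had enough counts to be tested, and edgeR called 0 of them in each comparison of A-485 or TSA with DMSO. The tested pair was *Nlrp4b* and the transcript within it. *Nlrp4b* is an oocyte-expressed gene of the NLRP family, and its mean was 123 FPKM in zygotes with DMSO, 55.5 and 52.1 in early 2-cell embryos with DMSO and A-485, and 12 and 12.2 in late 2-cell embryos with DMSO and TSA. Of the 44 other annotated genes inside the cluster, most of them pseudogenes, 18 were tested at early 2-cell, of which 3 fell with A-485. Over all genes 7.9% were called down there. At late 2-cell 2 of 10 fell after A-485 and 1 of 19 rose with TSA, against 16.8% and 13.8% of all genes. From zygote to early 2-cell with DMSO 3 of 19 rose, against 11.2% of all genes.

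Genes with a course like the family's were sought over the 8 group means, as the Pearson r of log2(FPKM + 1) with the family sum, among 9420 genes with a mean of at least 10 FPKM in some group. The 5 most alike were *BC147527* (r = 0.9812), *Gm5286* (0.9784), *Gm9113* (0.9768), *Gm9121* (0.9729) and *Gm11236* (0.9718), and 4 of these were also in the first 5 over the 16 libraries. *BC147527* had a mean of 135 FPKM in early 2-cell DMSO, 0.42 in early 2-cell A-485, 109 and 11.8 in late 2-cell DMSO and A-485, and 50.9 and 142 in late 2-cell DMSO and TSA. In the A-485 experiment the family's sum was 3.65-fold lower with DMSO at late than at early 2-cell. An r over 0.9 was reached by 192 of the 9420 genes, and the points share stages and libraries.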

How the data were processed

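Total RNA and ATAC-seq files were used. Per the submitters' processing notes, reads were trimmed with Trimmomatic 0.39, mapped with STAR 2.7.8a to GRCm38 and quantified with RSEM 1.3.1. The authors deposited, per library and gene, RSEM's expected count, not normalized, and FPKM, scaled to transcript length and library size. For ATAC-seq the authors deposited 1 peak list per stage and treatment, made from both replicates with the ENCODE pipeline, with a reproducibility score, a fold enrichment ratio and −log10 p and q values (the p column was not used). The deposited expected counts and FPKM give the depth, 13206163 to 32585987 counts a library.

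Of 55385 genes, 55144 matched GENCODE M21. Expected counts were rounded and tested with edgeR 4.0.16 (R 4.3.3; quasi-likelihood, TMM, Benjamini-Hochberg over every gene whose counts summed to 10 or more in the libraries compared). A call needed an adjusted p under 0.05, at least 2-fold change and a mean of 1 FPKM in either group, and interactions needed the adjusted p alone. Fold changes against a group without counts are bounds from 3 counts a library. DESeq2 1.42.0, other scalings and filters and libraries left out were alternatives. The script was tested on simulated data. Named genes were all 9 members, the 3 most abundant of each related list in a comparison and the 5 most alike in course. Members and lists were chosen with earlier results of these data known. Sequences were read from RefSeq's GRCm38 genome. The SE beside a log2 fold change is its absolute value over the square root of the test's F statistic. Leaving out a library moved some folds by more than their SE, as given above. Floors cover counting error only.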

Additional observations from a re-analysis of the deposited data

Results flagged for a closer look

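The A-485 effect on the 9 *Zscan4* genes differed between early and late 2-cell embryos, and edgeR tested that difference as an interaction term (8 libraries). The log2 effect at late 2-cell minus that at early 2-cell was 4.17 for *Zscan4a*, 3.68 for *Zscan4b*, 5.48 for *Zscan4c*, 5.75 for *Zscan4d*, 4.25 for *Zscan4e*, 7.52 for *Zscan4f*, 1.89 for *Zscan4-ps1* and 7.07 for *Zscan4-ps2*. For *Zscan4-ps3*, without counts in early 2-cell A-485 libraries, the fitted difference of 12.39 depends on the prior count and is no bound.

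The effects of TSA and A-485 at late 2-cell, each against its own DMSO libraries, also differed by a test of the difference in all 9 genes. The log2 effect of TSA minus that of A-485 was 2.81 for *Zscan4a*, 4.62 for *Zscan4b*, 3.39 for *Zscan4c*, 2.97 for *Zscan4d*, 4.50 for *Zscan4e*, 3.48 for *Zscan4f*, 3.13 for *Zscan4-ps1*, 4.11 for *Zscan4-ps2* and 2.91 for *Zscan4-ps3*. The experiments had separate DMSO groups, whose family sums of 158.9 and 182.26 and of 135.97 and 130.5 FPKM did not overlap.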

How the results depend on the processing

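Of 812 alternative values of single members that had been called, 796 stayed called, 16 lost the call and 0 changed direction. The 16 stand beside their results. In zygotes, the count of members called down with A-485 went from 0 to 1 without the filter on low counts, with all 16 libraries in 1 fit and with a replicate block. Replicate numbers did not pair the libraries (correlations of deviations −0.05 to 0.10), and the replicate block changed no other count. With A-485 between zygote and early 2-cell, members called up went from 0 to 2 without the FPKM cutoff, and those called down ranged from 1 to 2 over libraries left out. The family's TSA ratio went from 3.00 to 2.40 as TMM-scaled CPM. Its ratio of late to early 2-cell with A-485 went from 9.45 to 7.155. The ratio of DMSO to A-485 went from 143 to 129.1 at early 2-cell and from 4.16 to 4.708 at late 2-cell. With DMSO, early 2-cell over zygote went from 43.1 to 40.37, and early over late 2-cell from 3.65 to 3.831. Members with a peak in early 2-cell DMSO went from 0 to 6 with a distance of 2.5 to 3.5 kb upstream, chosen after seeing the data. Scaling moved the median log2 fold change of all genes by over 0.1 in some comparisons, by −0.98 (mitochondrially encoded genes) and 0.19 (total counts) at late 2-cell with A-485, by −0.18 and 0.36 with TSA, by −1.33 (mitochondrial) from zygote to early 2-cell with DMSO, by −1.70 and −0.19 over that interval with A-485, by −0.90 and 0.29 from early to late 2-cell with A-485 and by 0.27 (mitochondrial) in zygotes, and by 0.13 with TSA when all 16 libraries were fitted together. A −log10 q of at least 10 changed no count of peaks at the cluster. Members at a few counts in a group limit the size, not the direction, of the folds at early 2-cell.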
